A study of Mus musculus with 2 samples.

Results

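Perivascular cells marked by Rgs5 were examined in single-cell RNA sequencing of pancreatic tumours from KPPC mice. They numbered 436 of 9872 cells in the vehicle library and 15 of 26790 in the takinib library, 451 of 36662 in all. A cell was a barcode with at least 1000 unique molecular identifiers (UMIs, each standing for 1 captured transcript), 500 or more detected genes and a mitochondrial share of UMIs no higher than 20%. A perivascular cell held at least 3 UMIs of Rgs5, a regulator of G protein signalling, and at least 1 UMI over Pdgfrb, Notch3 and Col4a1 together. It held no UMI of Epcam, Pecam1, Cd79a or Cd3e, which mark epithelium, endothelium, B cells and T cells, and at most 2 UMIs over the macrophage genes C1qa, C1qb and C1qc. The levels of these genes chose the cells and are given only as a description.

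KPPC mice are engineered to develop pancreatic cancer; the labels give neither the alleles behind the name nor the number of animals. The mice were 6 weeks old and received either vehicle or takinib, a small-molecule inhibitor of the kinase TAK1, at 50 mg/kg for 14 days. Tumours were minced and digested to single cells before capture, and the labels also carry pancreas as the cell line and tumor as the cell type. There was 1 library per treatment, so no test was possible, no p-value is given, and the comparisons are mainly between cell classes within the vehicle library. Brackets hold exact 95% intervals that cover counting error only, not the spread between animals.

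Pericytes and vascular smooth muscle cells wrap the endothelium of small and larger vessels, share its basement membrane and set vessel tone. Their recruitment depends on PDGF-B from endothelium acting on the receptor PDGFRB, and their maintenance on NOTCH3 engaged by ligands on neighbouring endothelium. In pancreatic tumours they lie in a stroma dominated by fibroblasts, with which they share PDGFRB and several matrix genes.

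The vehicle matrix held 80850334 UMIs in 470280 barcodes with a UMI, and the takinib matrix 139292875 UMIs in 34158 barcodes, none with fewer than 500 UMIs. Kept cells had a median of 3594.5 UMIs in vehicle and 3049.5 in takinib, and the median mitochondrial share was 8.68% and 1.84%. The libraries shared 400 kept barcode sequences. Of the vehicle perivascular cells, 23 had a barcode also kept in takinib, and none shared one with a takinib perivascular cell. Free RNA was read from 376283 vehicle barcodes of 1 to 100 UMIs. The takinib matrix holds no such barcodes, and treatment, library and software version cannot be told apart. The sex of the cells also differed between the libraries, as described below.

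Perivascular cells made up 4.42% [4.02, 4.84] of vehicle cells and 0.0560% [0.0313, 0.0923] of takinib cells. Among perivascular cells and fibroblasts together their share was 45.3% [42.1, 48.5] in vehicle, against 4.62% [2.61, 7.50] in takinib. Over all kept cells, Rgs5 stood at 537 counts per 1000000 UMIs (CPM) in vehicle and 5.93 CPM in takinib. In vehicle, 643 cells held 3 or more UMIs of Rgs5, of which 622 also held Pdgfrb, Notch3 or Col4a1, and 436 passed the exclusions. The exclusions left out 94 cells with Epcam, 67 with C1q genes, 30 with Pecam1, 17 with Cd79a and 13 with Cd3e, some by more than 1 of these. In takinib the same steps left 37, 25 and 15 cells. The part of library and dissociation in the scarcity of takinib perivascular cells was not tested.

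Most cells lay far above the Rgs5 threshold, with 394 of the 436 holding 10 or more UMIs of it. The 11 cells with exactly 3 UMIs of Rgs5 held 691 CPM over Higd1b, Cox4i2, Ndufa4l2, Abcc9 and Kcnj8, pericyte genes the choice did not use, and 9555 CPM of the collagens Col1a1, Col1a2 and Col3a1. The 8 cells just outside, with 2 UMIs of Rgs5, held 393 CPM of those pericyte genes and 4322 CPM of those collagens. The 28 cells with 5 to 9 UMIs held 1060 CPM of the pericyte genes and 10333 CPM of the collagens, and the cells with 10 or more held 2753 and 4001 CPM.

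Fibroblasts of the same library were the reference: 526 cells with at least 10 UMIs over Col1a1, Col1a2 and Col3a1, at most 1 of Rgs5 and the same exclusions as the perivascular cells. Median depth was 3098.5 UMIs in perivascular cells (range 1020 to 16506) and 3227 in fibroblasts, with 1648366 and 2104078 UMIs in all. The doublet caller Scrublet marked 7 perivascular cells, 5 fibroblasts and 314 of all 9872 vehicle cells (3.18%), and none was removed. Endothelial cells (529, chosen on at least 2 UMIs over Pecam1 and Cdh5) and macrophages (3268, chosen on at least 10 UMIs of C1q genes) serve as further references.

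The perivascular label fitted its markers. Rgs5 had a median of 32 UMIs per perivascular cell (range 3 to 249), and the class stood at 10358 CPM, against 11.9 CPM in fibroblasts, 14.3 in endothelial cells, 5.86 in macrophages and 330 in free RNA. The gene lies on the plus strand of chromosome 1 at positions 169655501 to 169695813 (GRCm38). Pdgfrb stood at 1236 CPM against 259 in fibroblasts, Notch3 at 712 against 19.5, and the basement membrane collagen Col4a1 at 5114 against 1263. All 3 entered the choice. Sparcl1, a secreted matricellular protein of vessel walls that the choice did not use, was found in 100% of perivascular cells and 55.5% of fibroblasts, at 3596 and 915 CPM. Acta2, smooth muscle actin, was found in 74.3% and 30.2%, at 2482 and 647 CPM. Acta2 was the uneven one of the label's markers: its median was 3 UMIs per cell with a range of 0 to 108. When every cell was thinned to 1000 UMIs, Sparcl1 was found in 95.2% of perivascular cells, 38.4% of fibroblasts, 64.7% of endothelial cells and 1.22% of macrophages. It thus marked endothelium as well, whereas Higd1b, a hypoxia-inducible domain protein of mitochondria used as a pericyte marker, was found in 53.4%, 0.570%, 0% and 0%. With 3 cells taken as the limit of a count of 0, the last values allow a UMI in up to 0.567% of endothelial cells and 0.0918% of macrophages, which limits cells with a UMI and not cells expressing the gene.

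**Figure D1:**
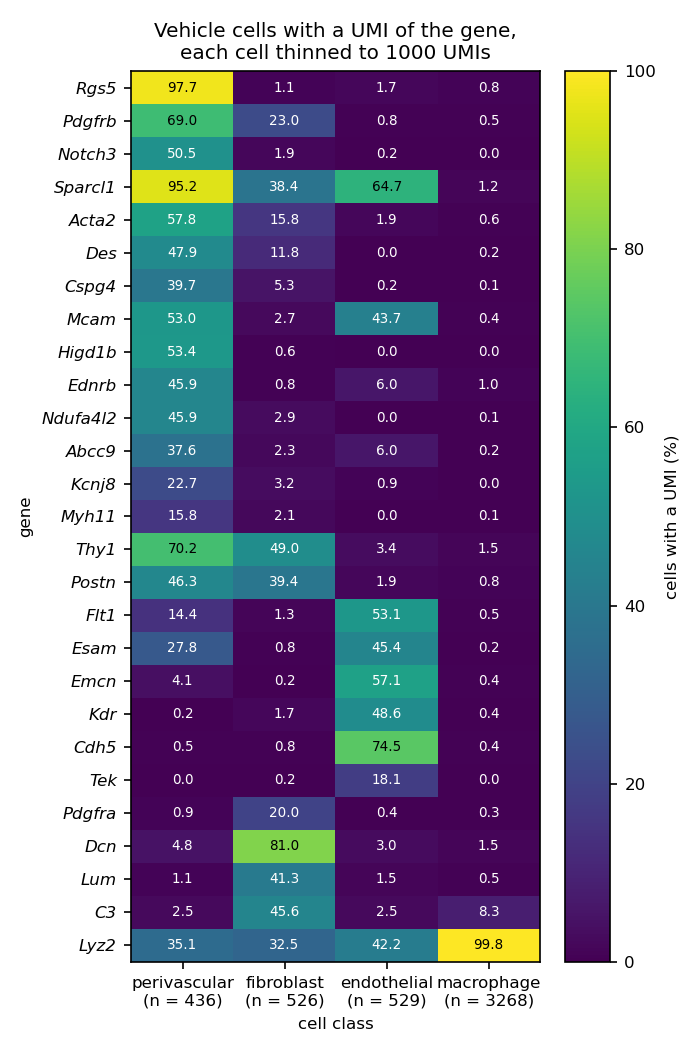
Share of vehicle cells with at least 1 UMI of each gene (rows) in 4 cell classes (columns), after each cell was thinned to 1000 UMIs; the colour and the printed number give the share in percent. Rgs5, Pdgfrb, Notch3, Cdh5 and the C1q, Pecam1 and collagen genes chose the classes; Higd1b is found in 53.4% of perivascular cells and 0.570% of fibroblasts, while Cdh5 is found in 0.459% of perivascular and 74.5% of endothelial cells.

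Which genes set perivascular cells apart from fibroblasts was read from the 8312 genes with at least 50 counts over both classes. Of these, 653 (7.86%) were at least 2-fold higher and 867 (10.4%) at least 2-fold lower in perivascular cells, and the median gene differed by 0.12 on the log2 scale. No test stands behind these counts, since cells of 1 library are not replicates and the classes were cut by expression. The 20 genes with the highest lower bound of the ratio were led by Ednrb, the endothelin B receptor, at 698 CPM [658, 739] in perivascular cells and 5.23 CPM [2.61, 9.35] in fibroblasts, a ratio of 133-fold. Higd1b followed at 916 and 9.03 CPM. Olfr558, an olfactory receptor gene known from vascular smooth muscle, stood at 194 CPM against 0.951 CPM from 2 counts, and Cox4i2, a cytochrome oxidase subunit of oxygen-sensing cells, at 228 against 1.43 CPM from 3 counts. The log2 ratios of those last genes were 7.67 [5.80, 10.72] and 7.32 [5.76, 9.61].

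The gap junction proteins Gja4 and Gjc1 were both among the 20. Gja4 stood at 280 CPM against 2.85, and Gjc1 at 476 against 21.4. Ephx3, an epoxide hydrolase, had 117 counts in perivascular cells and 0 in fibroblasts, at least 49.8-fold higher with the 0 set at 3 counts over the class. H2-M9, a non-classical MHC gene, had 50 counts against 0 and was at least 21.3-fold higher. The others included Vtn (vitronectin), Hey2 (a Notch target), Angpt2 (a ligand of the endothelial receptor Tek), Rgs4, Cyp4b1, Sncg and Inpp4b. The remaining genes were Trarg1, Tmem273, Prkar2b, Emid1 and Mnd1. In all 20 except Emid1 the fibroblast level was at or below that of free RNA. Angpt2, for example, stood at 0.475 CPM in fibroblasts, 16.9 in free RNA and 49.1 in perivascular cells.

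The 10 leading genes on the fibroblast side were C3, Slpi, Penk, Sfrp1, Gas6, Igfbp6, Saa3, Ptgis, Svep1 and Cilp. Complement C3 stood at 14.0 CPM in perivascular cells and 2904 in fibroblasts, 208-fold lower, and Sfrp1, a secreted Wnt antagonist, at 11.5 against 1614. C3 in free RNA was 164 CPM, so that the perivascular level lay under that of the empty droplets. Mesothelial transcripts ran on the fibroblast side too: 57 of the 526 fibroblasts held 3 or more UMIs of mesothelial markers, against 0 of 436 perivascular cells, which by the same limit of 3 cells allows a share of up to 0.688%. Their part in the fibroblast levels of these 10 genes was not tested.

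**Figure D2:**
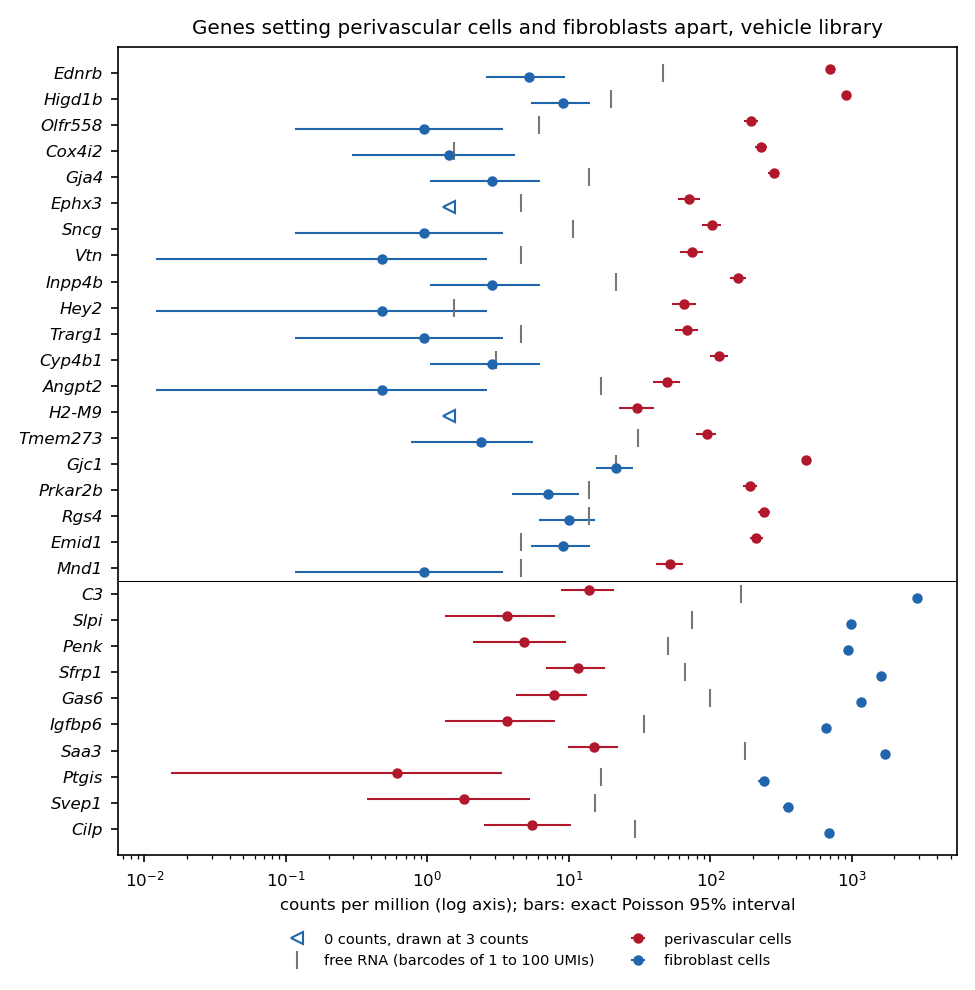
CPM (log axis) of the 30 genes that most set perivascular cells (red) and fibroblasts (blue) of the vehicle library apart, with exact Poisson 95% intervals and the level in free RNA (grey). The upper 20 genes are higher in perivascular cells, such as Ednrb at 698 against 5.23 CPM, and the lower 10 are higher in fibroblasts, such as C3 at 2904 against 14.0 CPM; open triangles stand for 0 counts.

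Among pericyte identity genes, 23 of 25 were measured, 19 of these were at least 2-fold higher in perivascular cells (7.86% of all genes were) and 2 at least 2-fold lower (10.4% of all genes), with a median log2 ratio of 2.63. Kcnj8 and Abcc9, which form the pericyte KATP channel, stood at 282 against 25.7 CPM and 521 against 28.0 CPM. The proteoglycan Cspg4 (NG2) stood at 570 against 76.0 CPM and the adhesion molecule Mcam (CD146) at 769 against 45.6 CPM. After thinning, Mcam was found in 53.0% of perivascular and 43.7% of endothelial cells, and Cspg4 in 39.7% and 0.189%. Mcam thus marked endothelium as well. The cation channel Trpc6 stood at 243 against 11.4 CPM and Ndufa4l2, a mitochondrial protein, at 645 against 43.2 CPM. The transcription factors followed more weakly: Ebf1 was at 670 against 136 CPM, Foxc1 at 57.0 against 9.03, Foxs1 at 108 against 23.3 and Tbx2 at 136 against 63.7. Anpep (CD13) did not separate the classes, at 50.4 and 52.3 CPM, and neither did Lhfp by the 2-fold limit, at 671 and 451. The 2 lower genes were the metalloreductase Steap4, at 31.5 against 83.2 CPM, and Angpt1, the ligand through which pericytes are known to steady endothelium, at 22.4 against 55.6. Tbx18 and Foxd1 had too few counts to be measured.

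Contractile genes of smooth muscle were higher in perivascular cells as well. Of 24 listed genes, 20 were measured, with a median log2 ratio of 1.49. Of these, 13 were at least 2-fold higher (7.86% of all genes) and none at least 2-fold lower (10.4% of all genes). Acta2 was 3.84-fold higher, the myosin light chain Myl9 stood at 773 against 158 CPM and the intermediate filament Des at 698 against 157. The myosin phosphatase inhibitor Ppp1r14a was the highest by ratio, at 255 against 25.2 CPM, and the heavy chain Myh11 stood at 244 against 62.3. Tagln, at 1499 against 879 CPM, Cald1, at 2699 against 1527, and Tpm2, at 557 against 321, lay within 2-fold, and Cnn1 was level at 26.7 and 26.6 CPM. Summed as a class, the fibroblasts thus held many of the same contractile transcripts, mostly at a lower level. Acta2, Tagln and Myh11 were found in 30.2%, 33.1% and 4.18% of fibroblasts, a minority, against 74.3%, 61.5% and 28.7% of perivascular cells.

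Because these genes were high together, the 250 bases before their transcription starts were searched for the CArG box, the site that serum response factor is known to bind in smooth muscle promoters. The search took CC, 6 bases of A or T and GG, or the same with 1 of the 6 inner bases G or C. The consensus reads the same on both strands. RefSeq promoters (GRCm38.p6) were found for 19 of the 24 contractile genes. A match occurred in 5 of their 23 promoters (21.7%), those of Acta2, Crip1, Jph2 and Myl9, against 8.59% of all 32851 promoters. The pericyte list had matches in 2 of 20 promoters, the vasoactive list in 2 of 38 and the interstitial matrix list in 2 of 19. With all 6 inner bases A or T, a match occurred in 1 of the 23 contractile promoters (4.35%), against 1.47% of all promoters. The pericyte list had 1 such promoter of 20, and the vasoactive and interstitial matrix lists none. The windows of Acta2 (chr19:34255374-34255623, minus strand) and Myl9 (chr2:156775214-156775463, plus strand) are shown with their matches in capitals, beside that of Rgs5 (chr1:169655251-169655500, plus strand), which has none.
Acta2: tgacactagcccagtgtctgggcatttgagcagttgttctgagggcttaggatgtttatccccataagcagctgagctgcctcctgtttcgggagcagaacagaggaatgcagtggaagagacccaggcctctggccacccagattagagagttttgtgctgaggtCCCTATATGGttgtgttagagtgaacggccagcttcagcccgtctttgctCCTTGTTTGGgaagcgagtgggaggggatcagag
Myl9: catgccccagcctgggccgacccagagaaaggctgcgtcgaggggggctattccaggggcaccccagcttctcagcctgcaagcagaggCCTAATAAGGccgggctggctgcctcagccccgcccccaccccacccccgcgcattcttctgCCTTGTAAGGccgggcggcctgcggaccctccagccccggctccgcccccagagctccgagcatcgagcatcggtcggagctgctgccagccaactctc
Rgs5: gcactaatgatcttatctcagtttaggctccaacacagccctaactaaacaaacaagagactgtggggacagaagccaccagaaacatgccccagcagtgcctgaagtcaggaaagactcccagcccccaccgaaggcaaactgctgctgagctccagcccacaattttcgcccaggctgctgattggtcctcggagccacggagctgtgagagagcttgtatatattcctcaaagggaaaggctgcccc

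In Acta2 the matches were CCCTATATGG, 84 bases before the start, and CCTTGTTTGG, 34 bases before it. In Myl9 they were CCTAATAAGG at 161 bases, which has only A and T inside, and CCTTGTAAGG at 99 bases. A match describes the letters and is not shown to be a site in use, and its absence near Rgs5 says only that these letters are not in this window.

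Receptors and effectors of vessel tone formed the other large group. Of 32 vasoactive genes, 25 were measured, 16 were at least 2-fold higher (7.86% of all genes), 3 at least 2-fold lower (10.4% of all genes), and the median log2 ratio was 1.80. The 32 genes summed to 4793 CPM in perivascular cells, 1920 in fibroblasts and 3720 in endothelial cells. Besides Ednrb, the endothelin A receptor Ednra stood at 305 against 81.3 CPM, the angiotensin receptor Agtr1a at 81.3 against 3.33 and the vasopressin receptor Avpr1a at 67.3 against 14.7. Both subunits of the nitric oxide receptor were high, Gucy1a1 at 249 against 19.0 CPM and Gucy1b1 at 283 CPM with a log2 ratio of 3.83. The phosphodiesterases that end cyclic nucleotide signals, Pde3a and Pde5a, stood at 323 against 40.4 CPM and 229 against 30.9, and the potassium channel subunit Kcnmb1 at 66.7 against 4.28. Among G protein regulators, Rgs4 stood at 240 against 9.98 CPM and Rgs16 at 184 against 32.8, whereas Rgs2 was lower, at 15.2 against 47.5. The prostaglandin E receptor Ptger3 was the lowest of the list, with 1.21 CPM from 2 counts against 109 CPM in fibroblasts, and Ramp2, a partner of the adrenomedullin receptor, stood at 9.71 against 38.0.

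Of the PDGF genes other than Pdgfrb, 3 of 5 were measured. The ligand Pdgfa was 604 CPM in perivascular cells and 85.5 in fibroblasts, while the receptor Pdgfra was 4.85 against 236 and the ligand Pdgfc 6.07 against 42.3. The PDGF list thus had 1 gene at least 2-fold higher, 2 lower and a median of -2.80. Over all genes 7.86% were higher and 10.4% lower. The ligand Pdgfb was highest in endothelial cells, at 239 CPM, with 6.07 CPM in perivascular cells. The 17 Notch genes summed to 730 CPM in perivascular cells, 282 in fibroblasts and 1365 in endothelial cells. Against fibroblasts the median log2 ratio was 2.19, and 1.16 with fibroblasts taken by collagen and Rgs5 alone. Of the 17, 9 were measured, 5 were at least 2-fold higher (7.86% of all genes) and none lower (10.4% of all genes). Those 5 were the receptor Notch1, at 111 against 18.1 CPM, the ligand Jag1, at 164 against 36.1, and the targets Hey2, at 65.5 against 0.475, Heyl, at 144 against 30.4, and Nrarp, at 30.9 against 0.951. The ligand Dll4 had 0 counts in perivascular cells and 175 CPM in endothelial cells. Notch2, at 18.2 against 34.7 CPM, and the shared effector Rbpj, at 64.3 against 69.4, lay within 2-fold.

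Genes of VEGF and angiopoietin signalling were split: 10 of 13 were measured, 2 were at least 2-fold higher (7.86% of all genes) and 5 lower (10.4%). The median was -0.47, a sign that changed with which fibroblasts or cells were counted. Flt1, the VEGF receptor 1, was one of the higher genes, at 215 CPM [194, 239] against 17.1, and was found in 39.4% of perivascular cells. Angpt2 was the other. Vegfa (15.8 against 50.4 CPM), Vegfc, Vegfd, Kdr and Angpt1 were lower. Flt1 is best known from endothelium, so the endothelial markers were read together, in cells chosen to hold no Pecam1. Of 12, 6 were measured, 3 were at least 2-fold higher (7.86% of all genes), 2 lower (10.4%), and the median was 2.32. That median was 0.67 at a minimum of 10 counts and -0.48 with fibroblasts taken by collagen and Rgs5 alone. The higher genes were Flt1, Esam (303 CPM, log2 ratio 3.92) and Emcn (48.5 against 1.43). The defining genes Cdh5, Kdr and Tek stood at 4.85, 2.43 and 2.43 CPM in perivascular cells, against 1407, 692 and 195 CPM in endothelial cells, which Cdh5 helped to choose. Flt1 and Esam in endothelial cells stood at 850 and 685 CPM. The 12 markers summed to 708 CPM in perivascular cells, 247 in fibroblasts, 428 in free RNA and 9416 in endothelial cells. Flt1 and Esam made up most of the perivascular sum, and the part of endothelial RNA in their levels was not tested.

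Basement membrane genes differed member by member. Of 22 listed, 19 were measured, 6 were at least 2-fold higher, 4 lower, and the median was 0.66, beside 7.86% higher and 10.4% lower over all genes. The 22 genes summed to 15011 CPM in perivascular cells, 11590 in fibroblasts and 14649 in endothelial cells. Col4a2, the partner chain of Col4a1, stood at 3024 against 773 CPM, Col18a1, the precursor of endostatin, at 1597 against 127, and the laminin chain Lama5 at 41.9 against 16.6. The integrins Itga1, a collagen receptor, at 1141 against 133 CPM, and Itga7, a laminin receptor, at 130 against 14.7, were higher too, and so was the proteoglycan Agrn, at 112 against 52.8. The lower genes were Col4a5, at 7.28 against 87.0 CPM, Col15a1, at 366 against 848, the laminin chain Lama2, at 38.8 against 114, and Itga3. The laminin chains Lamb1, Lamb2 and Lamc1 and the nidogens lay within 2-fold.

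Interstitial matrix genes ran the other way. All 28 were measured, 23 were at least 2-fold lower (10.4% of all genes), and the median log2 ratio was -2.11. Decorin, Dcn, stood at 63.7 CPM against 3981, lumican, Lum, at 10.9 against 730, the crosslinking enzyme Lox at 10.9 against 416 and the protease Mmp2 at 43.7 against 1097. The single gene at least 2-fold higher was Col6a3, at 1211 against 438 CPM, while its partner chains Col6a1 and Col6a2 were lower, at 345 against 1092 and 519 against 1145. Postn (906 against 1004 CPM), Fn1 (2867 against 3507), Col5a2 (1296 against 2034) and Mmp11 (61.9 against 38.0) lay within 2-fold. Of 20 fibroblast identity genes, which share Dcn, Lum and Col14a1 with the matrix list, 19 were measured, with a median of -4.98. Of these, 17 were at least 2-fold lower (10.4% of all genes) and none higher (7.86% of all genes). The 2 that were not lower were Thy1, at 1602 against 1172 CPM, and Fap, at 74.0 against 58.5. Both are widely used to pick out tumour fibroblasts, and after thinning Thy1 was found in 70.2% of perivascular cells and 49.0% of fibroblasts. Inflammatory fibroblast genes were at least 2-fold lower in 7 of 12 measured of 16 (10.4% of all genes), with none higher (7.86%) and a median of -3.39. Cxcl12 stood at 1.82 against 132 CPM, while the chemokines Ccl7 and Ccl11 were level at 93.4 and 93.6 and at 57.0 and 56.1.

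**Figure D3:**
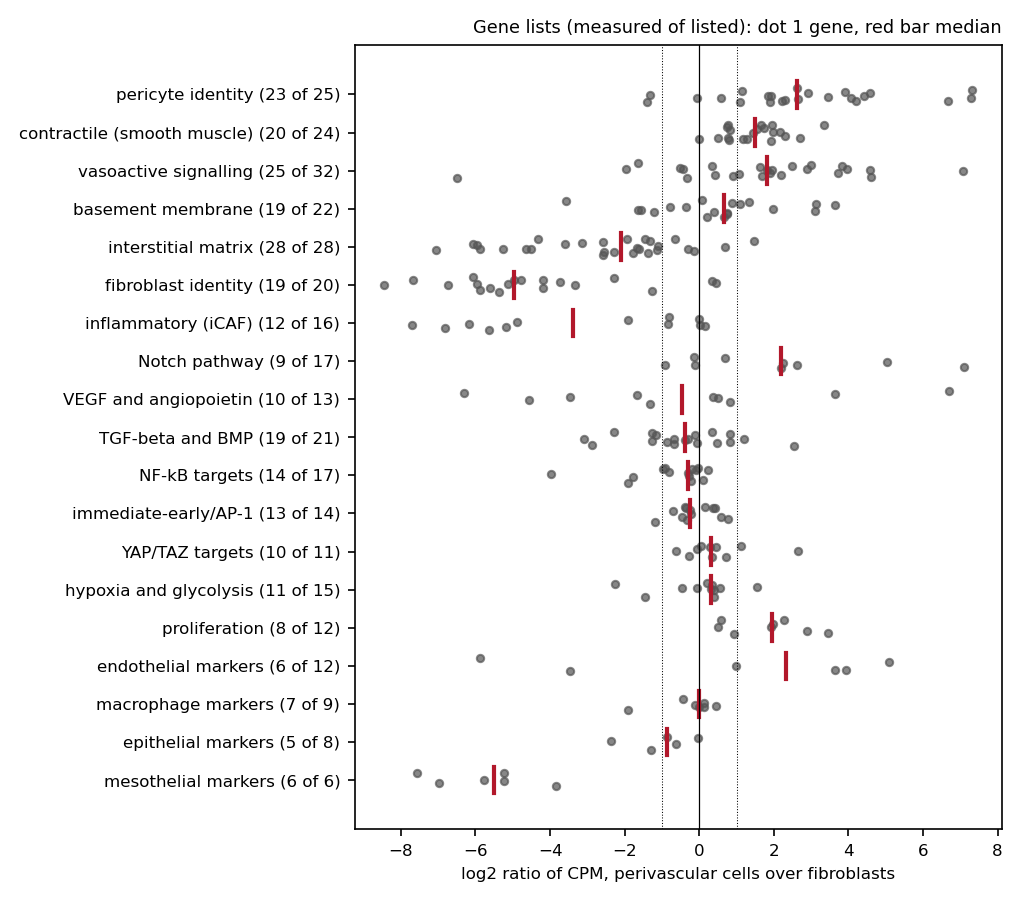
Log2 ratio of CPM, perivascular cells over fibroblasts of the vehicle library, for each measured gene (dot) of the fixed lists with at least 5 measured genes; red bars are list medians and dotted lines mark 2-fold. The pericyte, contractile and vasoactive medians lie at 2.63, 1.49 and 1.80, and the interstitial matrix and fibroblast identity medians at -2.11 and -4.98.

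Signalling lists near the drug's pathway were read in the same way, beside 7.86% of all genes higher and 10.4% lower. The TAK1 complex had 2 of 4 genes measured, both within 2-fold, with a median of 0.44, and Map3k7, which encodes TAK1, stood at 44.3 against 39.4 CPM. NF-kB targets had 14 of 17 measured, none higher, 3 lower (Vcam1, Icam1 and Il6) and a median of -0.29. Immediate-early genes had 13 of 14 measured, none higher, 1 lower (Ier3) and a median of -0.24. TGF-beta and BMP genes had 19 of 21 measured, 2 higher, 6 lower and a median of -0.38. The higher were Id3, at 1490 against 652 CPM, and Id4, at 52.2 against 9.03, and among the lower was the receptor Tgfbr2, at 92.2 against 450. YAP and TAZ targets had 10 of 11 measured, 2 higher (Ajuba and Crim1), none lower and a median of 0.32. Hypoxia and glycolysis genes had 11 of 15 measured, 1 higher (Ankrd37), 2 lower (Ndrg1 and Bnip3) and a median of 0.32.

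Markers of immune and epithelial cells lay below their level in free RNA. The 9 macrophage markers summed to 1069 CPM in perivascular cells, 1578 in fibroblasts and 12085 in free RNA, with 7 measured, none higher and 1 lower. Over all genes 7.86% were higher and 10.4% lower. The macrophage median was -0.01, and -1.86 with fibroblasts taken by collagen and Rgs5 alone. The 7 neutrophil markers summed to 240, 236 and 687 CPM, with 3 measured, 1 higher and 1 lower. Their median was 0.41, a sign that changed in 4 alternatives. The 8 epithelial markers summed to 199, 319 and 2010 CPM, with 5 measured, none higher, 2 lower and a median of -0.86. Mesothelial markers had all 6 measured and lower, with a median of -5.51, and a summed level of 2.43 CPM in perivascular cells. Of the 7 T and B markers none reached 50 counts. Acinar markers had 2 of 8 measured, both within 2-fold, with a median of 0.65. Of the 6 Schwann cell markers, Ngfr, the low-affinity nerve growth factor receptor, was the single measured one, at 38.8 CPM against 3.33 (median 3.54). Sox10, which defines Schwann cells, had 0 counts in perivascular cells.

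A small number of perivascular cells held cell cycle transcripts. Over Mki67, Top2a, Cdk1, Ube2c, Cenpf, Ccnb1, Ccnb2 and Birc5, 29 of 436 perivascular cells had 3 or more UMIs, 6.65% [4.50, 9.41], against 7 of 526 fibroblasts, 1.33% [0.537, 2.72]. Thinned to 1000 UMIs per cell, 40 perivascular cells (9.17% [6.64, 12.3]) and 16 fibroblasts (3.04% [1.75, 4.89]) held at least 1 such UMI. The 29 cells were deep, with a median of 7417 UMIs, and carried 88.9% of the class's counts of these genes. Their Rgs5 stood at 4398 CPM, against 10358 over all perivascular cells, and Sparcl1 at 1779 against 3596. Higd1b stood at 713 against 916 CPM, Abcc9 at 422 against 521, Kcnj8 at 178 against 282 and Acta2 at 3342 against 2482. Of the 12 proliferation genes, 8 were measured, with a median log2 ratio of 1.95. Of these, 5 were at least 2-fold higher (7.86% of all genes) and none lower (10.4%). Mki67 stood at 55.2 against 11.4 CPM. Without the cells of 3 or more such UMIs in either class, 1 gene of the list was measured, at 0.25.

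Perivascular cells differed among themselves in contractile transcripts. Cells with at least 2 UMIs of Myh11, the smooth muscle myosin, and none of Kcnj8 or Abcc9 numbered 33 (7.57%), and cells with Kcnj8 or Abcc9 and no Myh11 numbered 273 (62.6%). Another 36 held both and 94 neither. Median depth was 2178 UMIs in the Myh11 cells and 3328 in the Kcnj8 or Abcc9 cells, and the part of depth in the grouping was not tested. The Myh11 group had 101089 UMIs and the Kcnj8 or Abcc9 group 1046577. Between these groups 3836 genes had at least 50 counts, of which 152 (3.96%) were at least 2-fold higher in Myh11 cells and 420 (10.9%) at least 2-fold lower.

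Contractile genes followed Myh11. Of 17 measured besides Myh11 itself, 10 were at least 2-fold higher in Myh11 cells and none lower, with a median log2 ratio of 1.19, beside 3.96% and 10.9% over all genes. Acta2 stood at 5253 CPM [4815, 5719] in Myh11 cells and 1603 in Kcnj8 or Abcc9 cells, Mustn1, a small muscle protein, at 1405 against 213 and Tagln at 5520 against 694, although 1 cell gave 37.1% of the Tagln counts of the Myh11 cells. Cells holding both kinds of transcript stood at 6134 CPM of Acta2, 4572 of Tagln and 741 of Mustn1, and cells with neither at 2338 CPM of Acta2 and 1051 of Tagln. Mcam, at 801 and 743 CPM, and Ndufa4l2, at 633 and 658, lay close together in the Myh11 and the Kcnj8 or Abcc9 cells. Rgs5 stood at 10545 and 10619 CPM and Notch3 at 781 and 686, but both genes had entered the choice of the cells. Of 17 measured pericyte identity genes besides Kcnj8 and Abcc9, 1 was at least 2-fold higher in Myh11 cells (Vtn) and 2 lower (Cd248 and Trpc6), with a median of -0.24. Cd248, endosialin, stood at 336 against 948 CPM. Vasoactive genes had 19 measured, none higher in Myh11 cells and 6 lower (Rgs16, Cacna1c, Avpr1a, Kcnmb1, Adcy3 and Npr3), with a median of -0.75.

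The Myh11 cells were poorer in some matrix and surface genes that perivascular cells share with fibroblasts, while most measured matrix genes lay within 2-fold. Col1a1 stood at 247 CPM against 1613, Thy1 at 465 against 1843, the secreted glutathione peroxidase Gpx3 at 228 against 1812 and Col15a1 at 9.89, from 1 count, against 367. With Myh11 cells taken at 1 UMI, Thy1 stood at 744 CPM (log2 ratio -1.31), Gpx3 at 705 (-1.36) and Col15a1 at 67.7 (-2.44). Col4a1 differed less than these, at 2750 against 5243, and Flt1 stood at 39.6, from 4 counts, against 206. Basement membrane genes had 15 measured, 1 higher (Lamb2), 4 lower (Col15a1, Hspg2, Lamb1 and Nid2) and 10 within 2-fold, with a median of -0.65. Over all genes of this comparison 3.96% were higher and 10.9% lower. Beside those same shares, the interstitial matrix list had 22 measured, 1 higher (Eln), 8 lower and 13 within 2-fold, with a median of -0.68. Elastin, Eln, a product of arterial smooth muscle, stood at 811 CPM against 29.6, with 50.0% of its counts in the Myh11 cells from 1 of the 12 cells that held it. With Myh11 cells taken at 1 UMI, Eln stood at 485 CPM (log2 ratio 4.03). Col10a1, a collagen best known from hypertrophic cartilage, had 0 counts in Myh11 cells and 832 CPM in the others. There 19.8% of cells held it and 1 cell gave 28.8% of its counts. It was at least 28.0-fold lower in Myh11 cells. With Myh11 cells taken at 1 UMI, Col10a1 stood at 45.1 CPM (log2 ratio -4.21). Other leading genes of the Myh11 cells were Igfbp5, S100a4, Crispld2, Fxyd1, Cav1 and Map1b, and of the Kcnj8 or Abcc9 cells Col8a1, Bmp1 and Tmem273. Some leading genes came from 1 cell. Spp1 in Myh11 cells owed 95.9% of its counts to 1 cell, and Mmp9, S100a8 and S100a9 in the Kcnj8 or Abcc9 cells owed 55.4%, 53.0% and 66.0% to 1 cell each.

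**Figure D4:**
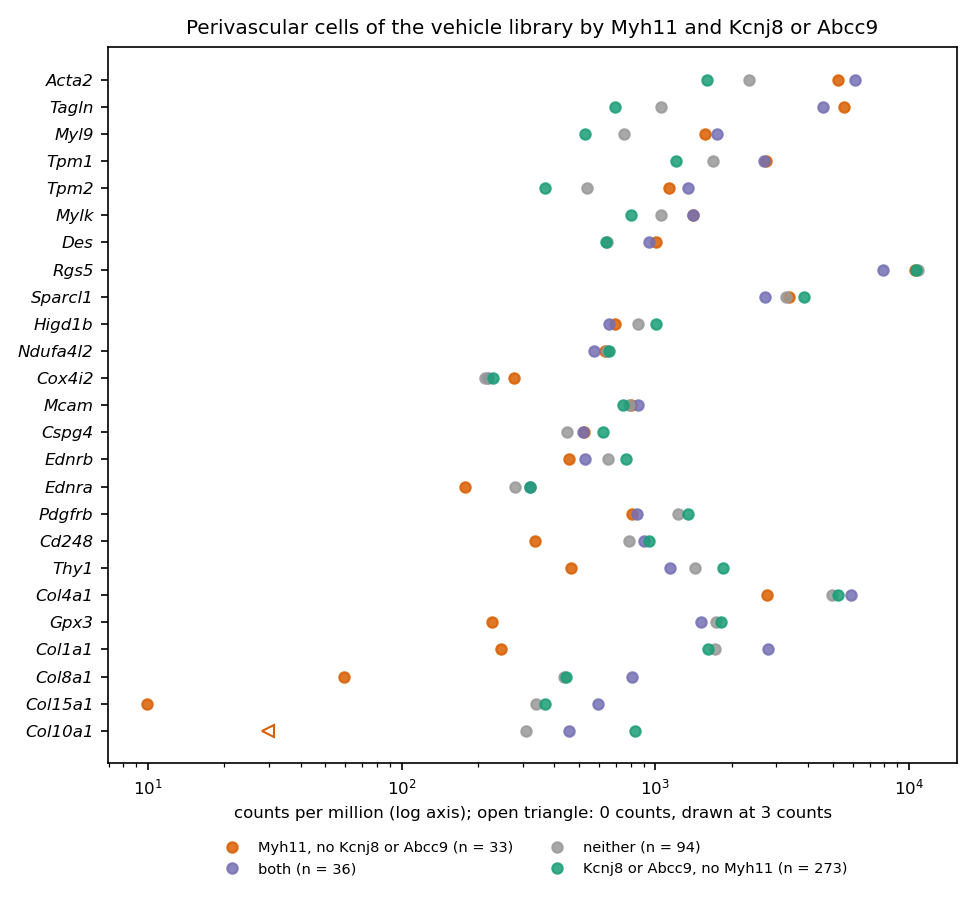
CPM (log axis) of 25 genes in 4 groups of vehicle perivascular cells defined by Myh11 and by Kcnj8 or Abcc9 (colours, with the number of cells); open triangles stand for 0 counts. Acta2 and Tagln are high in both groups with Myh11 (5253 and 6134 CPM of Acta2), Rgs5, which chose the cells, is at 10545 and 10619 CPM, and Gpx3 and Thy1 are low in the Myh11 group.

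The vehicle library held cells of both sexes, hence of at least 2 animals, which gives a view within cells of each origin. Of the perivascular cells, 148 held UMIs of the 4 Y-linked genes and no Xist, 31 held Xist and no Y-linked UMI, 4 held both and 253 neither. Xist stood at 47.3 CPM in perivascular cells, 142 in fibroblasts and 78.2 in free RNA, and the Y-linked Ddx3y at 56.4, 65.6 and 64.4 CPM. The part of free RNA in these calls was not tested. Cells called male were 82.7% [76.3, 87.9] of the decided perivascular cells and 66.5% [60.7, 72.0] of the decided fibroblasts. The 30 named genes were chosen on all vehicle cells, male and female included, so their values by origin are a description. Of the 20 on the perivascular side, 4 had too few counts for a ratio among female cells, which rest on 31 perivascular cells. Ednrb stood at 684 CPM in male and 672 in female perivascular cells, and at 6.28 and 0 in the fibroblasts. Higd1b stood at 831 and 928 against 10.5 and 0. The median of the contractile list was 1.46 in male and 1.69 in female cells, and that of the interstitial matrix list -1.90 and -2.05.

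The 15 takinib perivascular cells held 79058 UMIs. Rgs5 stood at 5224 CPM [4732, 5753], against 10358 in vehicle, Notch3 at 696 against 712, Sparcl1 at 2277 against 3596 and Acta2 at 2517 against 2482. Higd1b stood at 468 against 916 CPM, Ednrb at 468 against 698, Cspg4 at 215 against 570, Thy1 at 595 against 1602 and Myh11 at 481 against 244. The ligands Pdgfa and Jag1 stood close to vehicle, at 607 against 604 and 164 against 164 CPM, and the vessel wall collagens were somewhat lower, with Col4a1 at 3984 against 5114 and Col18a1 at 999 against 1597. The cell with the most counts gave 56.8% of those of Ednrb, 48.6% of Higd1b, 47.1% of Cspg4 and 45.7% of Acta2. With that cell left out in each case, the levels were 212, 271, 135 and 1678 CPM. Of the 15 cells, 12 held Xist and none a Y-linked UMI, whereas most decided vehicle cells were male. Over the whole takinib library 15602 of 26790 cells held Xist and none a Y-linked UMI. In vehicle 74.1% of all decided cells were called male. Comparisons between the libraries thus also set cells called female against cells mostly called male, and the part of sex was not tested. Higd1b and Ednrb, with 37 counts each, had 0 counts in the 310 takinib fibroblasts. Gja4 had 25 counts against 1, Cyp4b1 24 against 2, Gjc1 28 against 65 and Cox4i2 15 against 26. Per UMI, Gjc1 stood at 354 CPM against 18.4 and Cox4i2 at 190 against 7.35. On the fibroblast side C3 had 2 counts against 7275, and Saa3 stood at 3580 CPM against 13819.

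Inflammatory transcripts stood higher in the takinib perivascular cells than in those of vehicle. Cxcl2 was 3984 CPM against 33.4, the acute phase protein Saa3 3580 against 15.2, Il1b 987 against 35.8 and the NF-kB inhibitor Nfkbia 493 against 97.1. The neutrophil genes S100a8 and Retnlg moved with them, at 3693 against 77.0 CPM and 708 against 0.607, the last from 1 count. The 7 neutrophil markers summed to 8209 CPM in takinib perivascular cells, 15798 in takinib fibroblasts and 35163 in takinib endothelial cells, against 240, 236 and 732 in vehicle. In the takinib library as a whole, Saa3 was 16355 CPM and Cxcl2 10265, against 366 and 362 in vehicle, and the level of free RNA could not be read there. The part of free RNA in these values was not tested. Single cells weighed heavily. The cell with the most counts gave 82.1% of those of Retnlg, 69.5% of S100a8, 64.0% of Saa3, 57.7% of Il1b and 48.3% of Cxcl2. Without that cell in each case the levels were 139, 1240, 1390, 460 and 2220 CPM. Nfkbia depended less on 1 cell and stood at 390 CPM without the highest. The fibroblast genes Lum and Dcn owed 100% and 82.7% of their counts to 1 cell, and without it Dcn stood at 135 CPM and Lum at 0 counts.

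**Figure D5:**
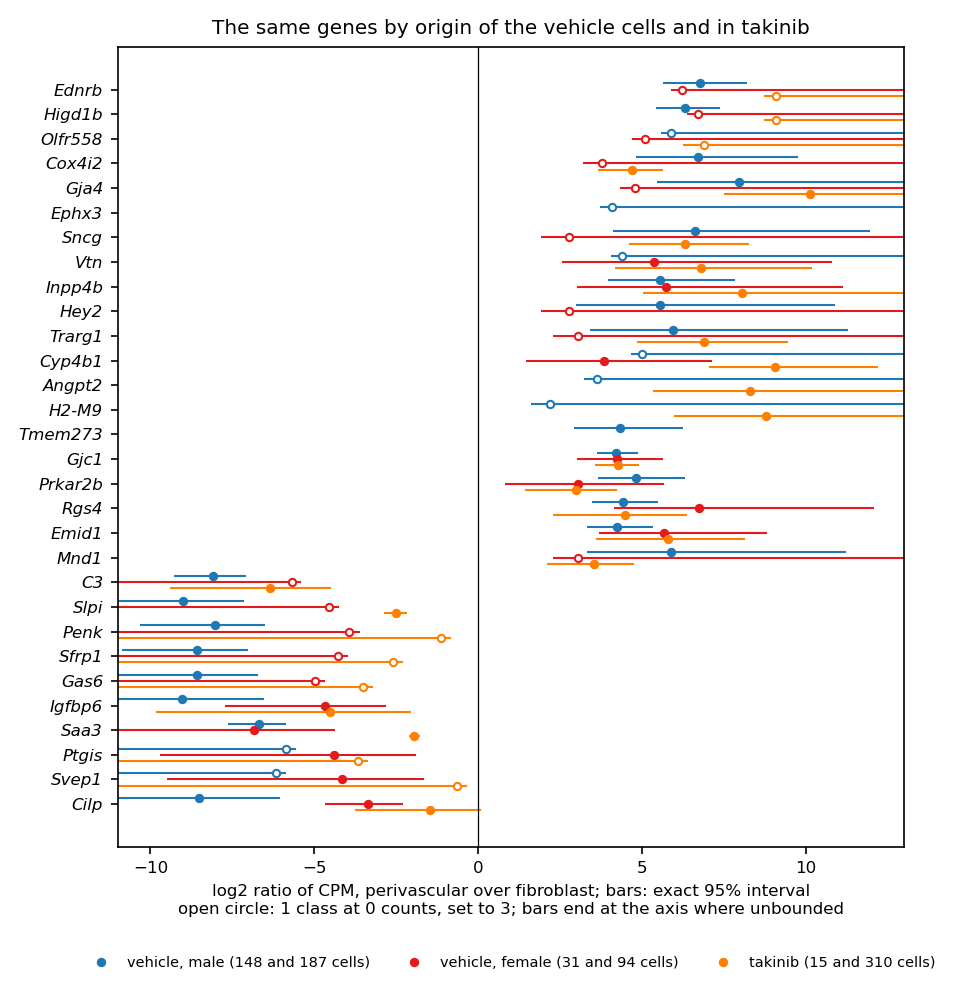
Log2 ratio of CPM, perivascular cells over fibroblasts, for the 30 named genes in vehicle cells of male (blue) and female (red) origin and in takinib (orange), with exact 95% intervals. The genes were chosen on all vehicle cells, and 4 of the 20 perivascular genes have no ratio in female cells; open circles have 1 class at 0 counts, set to 3.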

How the data were processed

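Single-cell RNA was counted in 2 tumour samples, vehicle and takinib, 1 library each. Both deposited matrices hold whole-number UMI counts, not normalized, from Cell Ranger 4 (vehicle) and cellranger-6.1.1 (takinib), per the file headers. The submitters' processing notes name Cell Ranger 2.1.1, STAR 2.0.4b, bcl2fastq, Subread, featureCounts 1.45 and mm10, which differ from the headers. The takinib matrix lists only barcodes with 500 or more UMIs and the vehicle matrix many below that, so the same limits were applied to both. Gene positions are from GENCODE M21 (GRCm38) and promoters from RefSeq.

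Levels are the summed counts of a class over all its UMIs (CPM). Ratios carry exact conditional binomial intervals, levels exact Poisson intervals and shares exact Clopper-Pearson intervals, at 95%. They cover counting error only. Genes with at least 50 counts over both classes were measured, and a count of 0 was set at 3, for shares of cells too. The interval was tested on simulated counts. Named genes are those whose ratio interval lies farthest from 1: 20 on the perivascular and 10 on the fibroblast side, and 10 a side between the Myh11 and Kcnj8 or Abcc9 groups. Genes of the choice and mitochondrial, ribosomal, haemoglobin, immunoglobulin and Gm or Rik models were left out, and genes of the 25 lists may also be named. The cells and lists were chosen with earlier results of these data known. Doublets were called with scanpy 1.11.5 (Scrublet, expected rate 6%). Alternatives to depth, thresholds, scaling, fibroblast definition, sex and thinning were tried.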

Additional observations from a re-analysis of the deposited data

Results flagged for a closer look

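In 7 list genes the ratio of perivascular cells over fibroblasts was past 2-fold in opposite directions in the 2 libraries, lower in vehicle and higher in takinib. The difference between the libraries was not tested, and the takinib side rests on 15 cells. Angpt1 had log2 ratios of -1.31 in vehicle and 2.29 in takinib, from 6 takinib counts. Col15a1 had -1.21 and 1.67, Col6a2 -1.14 and 1.38, Col8a1 -1.39 and 1.59, Fbn1 -1.33 and 1.43, Il6 -1.90 and 1.94, and Lama2 -1.55 and 2.02. The takinib counts came from 2 to 13 cells, and 1 cell gave 82.8% of those of Il6, 63.6% of Col8a1, 60% of Lama2 and 42.9% of Col15a1. Col6a2 and Fbn1 were the most widely held, with UMIs in 12 and 13 of the 15 cells. Col6a2 stood at 1145 CPM in vehicle and 374 in takinib fibroblasts, and at 519 and 974 CPM in perivascular cells. Fbn1 stood at 829 and 291 CPM in fibroblasts, and at 330 and 784 CPM in perivascular cells.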

How the results depend on the processing

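No paired analysis was possible because each treatment has 1 library, and no replicate could be left out. The perivascular share of vehicle cells was 4.86% with a mitochondrial limit of 10%. With barcodes thinned to 1000 UMIs the share was 4.55% in vehicle, from 449 cells, and 0.0299% in takinib, from 8. Thinning acts on every step of the choice, and the steps were not separated. Genes past 2-fold numbered 1265 higher and 1803 lower at a minimum of 10 counts, 244 and 340 at 200 counts, 314 and 351 after thinning, 106 and 241 in female cells, 449 and 651 with 10 CPM added, 563 and 957 scaled to a median ratio of 1, 679 and 1197 with fibroblasts by collagen and Rgs5 alone, and 877 and 890 with free RNA subtracted. The pericyte median was 2.22 with 10 CPM added to each class and 3.21 after thinning. The contractile median was 1.23 at a minimum of 10 counts, 1.76 with fibroblasts taken by collagen and Rgs5 alone, and 1.27 without fibroblasts of 3 or more mesothelial UMIs, an alternative added after seeing the data, as was leaving out cells with cell cycle UMIs. Genes lower in Myh11 cells numbered 275 with Myh11 at 1 UMI. The median of the endothelial markers turned to -0.48 with fibroblasts by collagen and Rgs5 alone, a definition that admits cells with Pecam1. The cause was not tested. The median changed sign in 4 alternatives for the neutrophil list, in 3 each for the VEGF and macrophage lists, and in 1 each for the immediate-early, hypoxia, epithelial and acinar lists. None of the 14 alternatives run for the pericyte, contractile, vasoactive, interstitial matrix and fibroblast identity medians changed their sign. The fibroblast identity median ranged from -5.55 with a mitochondrial limit of 10% to -2.92 in female cells. The inflammatory fibroblast median ranged from -5.24 with that limit to -2.04 with 10 CPM added. The neutrophil median was lowest in female cells, at -2.28. Female values rest on 31 perivascular cells and takinib values on 15.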
